A study of Homo sapiens with 14 samples.

Results

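Enrichment of ribosome footprints with an EMC7 bait was compared with enrichment with an EMC10 bait. For each gene the log2 change from input to immunoprecipitate (IP) with EMC7 was set against the same change with EMC10, and the difference between them, EMC7 minus EMC10, was the measure. The comparison used 10 of the 14 libraries of the study, the 4 of the EMC7 line and the 6 of the EMC10 line, with IP and input paired by replicate number (n = 2 pairs for EMC7, n = 3 pairs for EMC10). The footprints of 9230 genes entered the test, and the rows of the baits, EMC7 and EMC10, were left apart.

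All cells were Flp-In T-REx 293, a derivative of the human embryonic kidney line HEK293 in which a transgene at a fixed site is switched on by doxycycline. The EMC7 line carried inducible 3Flag-EMC7 and the EMC10 line inducible 3Flag-EMC10. The labels name no knockout for either line, so as far as they say the cell's own copy was also present, and they do not say how many clones a line represents. Both lines had doxycycline at 0.5 to 1.0 ng/mL for 72 h and were harvested with cycloheximide, which holds ribosomes in place. Input was the solubilized microsome fraction after nuclease treatment, and IP was what Flag beads held of it. No IP from cells without a tagged subunit was used here, so material that binds the beads without the bait was not measured. The labels number the replicates and do not name them as independent cultures, so a p-value here rests on the spread between samples alone, and that spread may be technical.

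The ER membrane protein complex (EMC) is an insertase of the endoplasmic reticulum (ER) that places transmembrane segments of nascent proteins into the lipid bilayer. EMC3 and EMC6 form its membrane-embedded insertase core, EMC2, EMC8 and EMC9 lie on the cytosolic side, and EMC1, EMC7 and EMC10 build its part in the ER lumen. In selective ribosome profiling a tagged subunit pulls down the ribosomes whose nascent chains it contacts, and the protected mRNA fragments are counted per gene. Proteins with many transmembrane segments are its best known clients, whereas secreted proteins and proteins with a single segment behind a signal peptide are usually handled by the Sec61 translocon.

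Inputs held 2397165 to 3395114 counts on genes, and IPs 1335235 to 2248591. The bait messages themselves marked the lines. EMC7 took 14.4% and 15% of the gene counts in the EMC7 IPs against 0.534% and 0.602% in the inputs, and EMC10 took 24.6% to 26.1% in the EMC10 IPs against 0.312% to 0.393%. Of 9734 genes tested between the inputs of the lines none was called by edgeR's quasi-likelihood test after Benjamini-Hochberg adjustment (smallest adjusted p 0.999). There were 411 genes at an unadjusted p under 0.05, and DESeq2 also called 0. Of the HEK293 markers VIM, KRT8, KRT18, NEFL and INA were present in every library, whereas NEFM reached at most 1 count and PAX2 at most 5. Of 9 markers of other cell types, ALB, INS, PECAM1 and PTPRC had 0 counts in each library and APOA1, CD3E and HBB at most 1. The fibroblast collagens COL1A1 and COL3A1 had 7 to 20 and 113 to 184 counts per input, and 1 to 5 and 16 to 65 per IP.

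Genes enriched more with EMC7 than with EMC10 included 37 of 102 members of a list of type II Golgi enzymes, 24 of 50 lysosomal hydrolases and activators, 14 of 44 multi-pass receptors with a signal peptide, and the subunit EMC1. Genes enriched less included 19 of 156 solute carriers and 10 of 33 ER ubiquitin ligases and membrane factors of ER-associated degradation. In all, 307 of the 9230 genes were higher with EMC7 (3.33%) and 97 were lower (1.05%), 404 in all (4.38%), at an adjusted p of 0.05 in edgeR's quasi-likelihood test. The counts were 187 and 60 without EMC7 replicate 2, 162 and 75 without EMC10 replicate 2, and 148 and 14 in the fit without pair blocks. Log2 differences of the higher genes ran from 0.30 to 3.95 with a median of 0.65, and the median of the lower genes was -0.50. The differences were mostly ones of degree: 295 of the 307 higher genes rose from input to IP with both baits, and so did 79 of the 97 lower genes. Of the other higher genes, 9 rose with EMC7 and were not called with EMC10, and 3 fell with EMC10 and were not called with EMC7. Of the other lower genes, 5 rose with EMC10 and were not called with EMC7, 6 fell with EMC7 and were not called with EMC10, 6 fell with both baits and 1 was called in opposite directions.

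That gene was MCFD2, a soluble cargo adaptor of the early secretory pathway. Its footprints fell by 0.34 on the log2 scale with EMC7 (SE 0.13, edgeR adjusted p = 0.0286) and rose by 0.32 ± 0.11 with EMC10 (adjusted p = 0.00885), a difference of -0.66 ± 0.17 (adjusted p = 0.00423). The paired log2 ratios were -0.41 and -0.26 with EMC7 and 0.29, 0.39 and 0.27 with EMC10, without overlap.

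**Figure D1:**
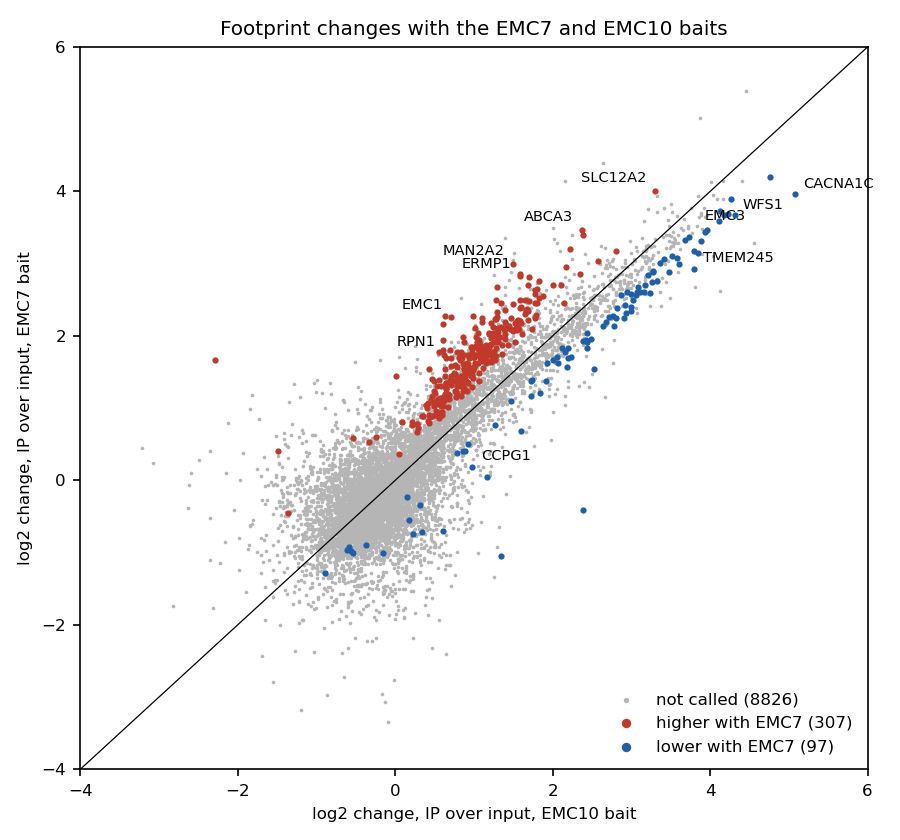
Each point is a gene, placed by its log2 change from input to IP with the EMC10 bait (x axis) and the EMC7 bait (y axis); the line marks equal changes. The 307 genes higher with EMC7 (red) lie mostly at moderate enrichment and the 97 lower genes (blue) mostly at strong enrichment, and 4 genes lie outside the plotted range.

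Across the 9230 genes the changes with the baits correlated at r = 0.84 (Spearman's rho = 0.72), as a description over genes, which are not independent replicates. The SD of the changes over genes was 1.01 with EMC7 and 0.94 with EMC10, and the median difference of all genes was -0.02. Direction went with the size of enrichment. Among 994 genes whose mean change over both baits lay between 1 and 2, 207 were higher with EMC7 (20.8%) and 17 were lower. Among 411 genes with a mean change between 2 and 3 the counts were 32 higher and 31 lower. Among 140 genes with a mean change of 3 or more, 1 was higher and 27 were lower (19.3%). The 1 higher gene there was SLC12A2. Among 5375 genes with a mean change below 0 the test called 3 higher and 14 lower.

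In all 307 higher genes every EMC7 pair lay above every EMC10 pair, and in 95 of the 97 lower genes every EMC7 pair lay below. Over all genes tested 13.4% had the EMC7 pairs above and 13.3% had them below. The calls were made from these same pairs, so the separation in called genes was largely built in and adds no separate support. IP libraries compared directly, without their inputs, gave 433 genes higher and 56 lower of 6587 tested (6.57% and 0.85%), and 300 of the 307 higher genes and 40 of the 97 lower genes were among them. In every lower gene named by the rule given below, the estimated input level was higher with EMC7. The input is subtracted in the measure, so a choice of the lowest differences favours such genes. No share over all genes is given beside it. The log2 gap ran from 0.06 (AVEN) to 0.58 (SLC37A1), and none was called. For ZDHHC17 the inputs differed by 0.39 and the IPs by -0.21, and for WFS1 by 0.11 and -0.52. The part of the inputs in the lower differences was not tested. The split of calls between the directions moved with the scaling. Of the calls, 76% were higher with EMC7 under TMM, 66% with library size alone, 59.8% with the EMC10 changes stretched to the range of the EMC7 changes, and 17.6% (113 higher and 528 lower) with scaling on secreted and luminal genes. That last scaling takes its factors from the secreted, lysosomal and ER luminal lists pooled and sets the median difference of all genes to -0.26, so that each list with a median between 0 and 0.23 turned below 0 under it. None of the 404 called genes was called in the opposite direction under any alternative.

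The subunits of the EMC stood apart from each other. EMC1, the largest subunit, with most of its mass in the ER lumen (GRCh38 chromosome 1, 19215660 to 19251524), had the smallest adjusted p of all genes tested. Normalised CPM (the count as a share of the library, after TMM scaling) of EMC1 was 1082 and 992 in the EMC7 inputs and 4897 and 5070 in the EMC7 IPs. In the EMC10 line EMC1 was at 893, 962 and 1050 CPM in the inputs and 1694, 1439 and 1618 CPM in the IPs. The inputs overlapped and the IPs did not. EMC1 thus rose 4.81-fold with EMC7 and 1.63-fold with EMC10, a log2 difference of 1.56 ± 0.10 (SE, edgeR adjusted p = 5.82e-38) that stayed between 1.46 and 1.66 when any pair was left out.

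EMC3, the multi-pass core subunit, was strongly enriched with either bait, by 3.52 and 3.83 on the log2 scale. Its paired log2 ratios were 3.63 and 3.39 with EMC7 and 4.01, 3.95 and 3.52 with EMC10, which overlap, and the difference of -0.31 ± 0.10 missed the threshold (edgeR adjusted p = 0.0666). With 1 pair left out that difference ran from -0.46 to -0.20, and it passed without EMC7 replicate 1 (adjusted p = 0.0204) and without EMC10 replicate 3 (adjusted p = 0.0105). EMC4, another membrane subunit, had changes of 3.40 with EMC7 and 3.59 with EMC10 (difference -0.19 ± 0.12, adjusted p = 0.612). EMC6 and MMGT1 (EMC5), small membrane subunits, had differences of 0.03 ± 0.24 and 0.09 ± 0.21. The cytosolic subunits EMC2, EMC8 and EMC9 had 4 to 17 counts in each IP, and their differences of -0.17, 0 and -0.42 had SEs of 0.48, 0.47 and 0.79. Of the 8 tested subunits beside the baits, EMC1 alone was called (1 higher, 0 lower, median difference -0.08), with 2 lower under the scaling on secreted and luminal genes.

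The bait messages, outside the test, were not symmetric between the lines. The EMC7 message (chromosome 15, 34084017 to 34101862) had log2 IP/input ratios of 5.79 and 5.69 in its own line and of 2.96, 3.15 and 2.87 in the EMC10 line. The EMC10 message (chromosome 19, 50476507 to 50490871) had ratios of 7.63, 7.43 and 7.17 in its own line and of 0.70 and 0.62 in the EMC7 line. The counts do not separate a transgene's message from the cell's own.

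**Figure D2:**
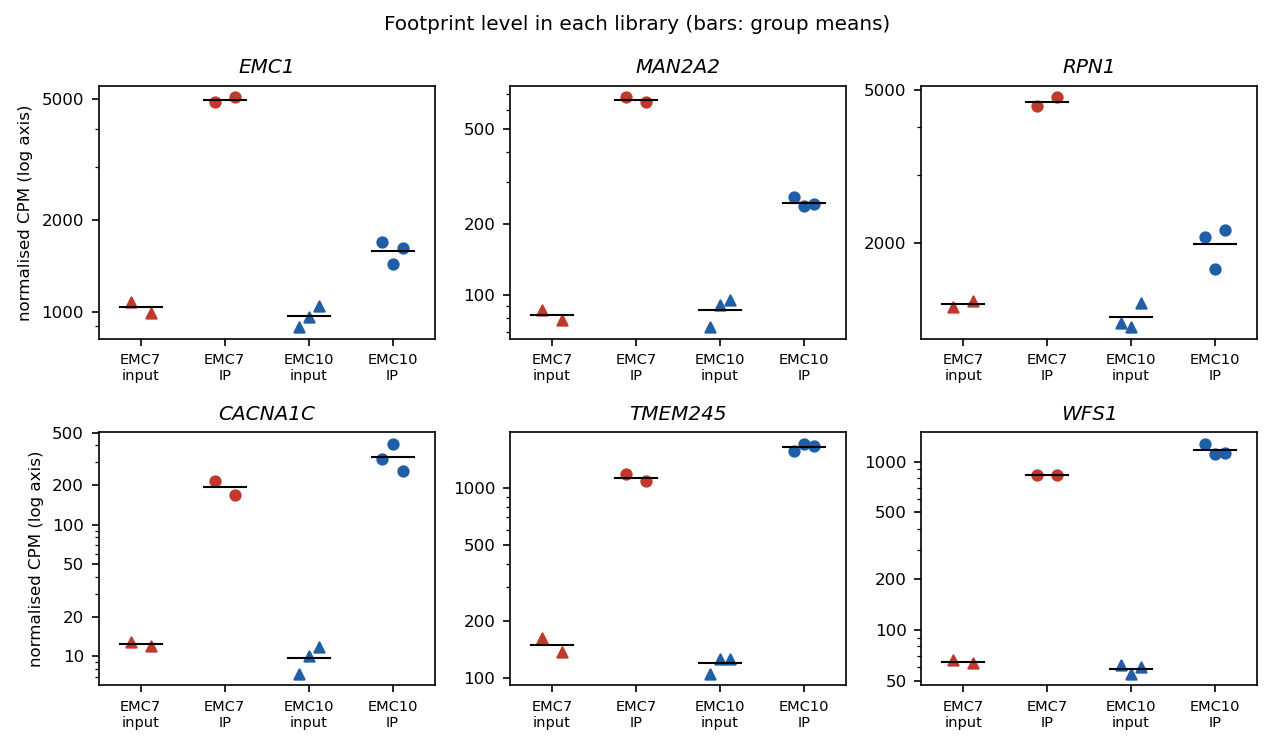
Normalised CPM on a log axis for 6 genes in each input (triangles) and IP (circles) of the EMC7 line (red) and the EMC10 line (blue), with bars at group means. The IPs of the lines separate in each panel, and the EMC7 IPs lie above for EMC1, MAN2A2 and RPN1 and below for CACNA1C, TMEM245 and WFS1.

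Type II membrane enzymes of the Golgi, which carry a single membrane anchor near the N terminus and build or trim glycans in the lumen, formed the longest list of higher genes. Of 102 tested members 37 were higher with EMC7 (36.3%) and 0 were lower, and the median difference was 0.52 against -0.02 over all genes. Over the median of all genes, the list's median IP/input ratio was 1.42 and 1.53 in the EMC7 pairs and 1.08, 0.85 and 0.93 in the EMC10 pairs, without overlap. Scaling on secreted and luminal genes left 18 higher and 0 lower, and the fit without pair blocks 24 higher and 0 lower. At an unadjusted p under 0.05, 53 members were higher and 0 lower.

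MAN2A2, a Golgi alpha-mannosidase that trims N-glycans, had 86.7 and 78.7 CPM in the EMC7 inputs and 676 and 647 in the EMC7 IPs. MAN2A2 had 73.6, 91.1 and 95.9 CPM in the EMC10 inputs and 258, 236 and 241 in the EMC10 IPs. Each EMC7 IP lay above every EMC10 IP while the inputs overlapped, and the changes of 7.98-fold and 2.81-fold differed by 1.51 ± 0.14 on the log2 scale (edgeR adjusted p = 5.49e-21). HS6ST1, which adds 6-O-sulfate to heparan sulfate, differed by 1.28 ± 0.23, with paired log2 ratios of 2.28 and 2.23 against 1.30, 0.64 and 1.00. MAN1C1, a mannosidase of the same trimming pathway, differed by 1.33 ± 0.31, and by 1.02 (adjusted p = 0.139) without EMC7 replicate 2. List members given here and further on with a difference alone were mostly chosen after their values were seen. Further members of this list called higher, not all of them resident in the Golgi, were the protein tyrosine sulfotransferase TPST2 (1.22), the GM3 synthase ST3GAL5 (1.21), the glycosaminoglycan linker enzyme B3GAT3 (1.12), the N-glycan branching enzymes MGAT1 (0.88) and MGAT5 (0.74), the heparan sulfate polymerase subunit EXT2 (0.80), and the O-mannose glycan enzymes POMGNT1 (0.69), POMGNT2 (0.81) and B3GALNT2 (0.69).

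**Figure D3:**
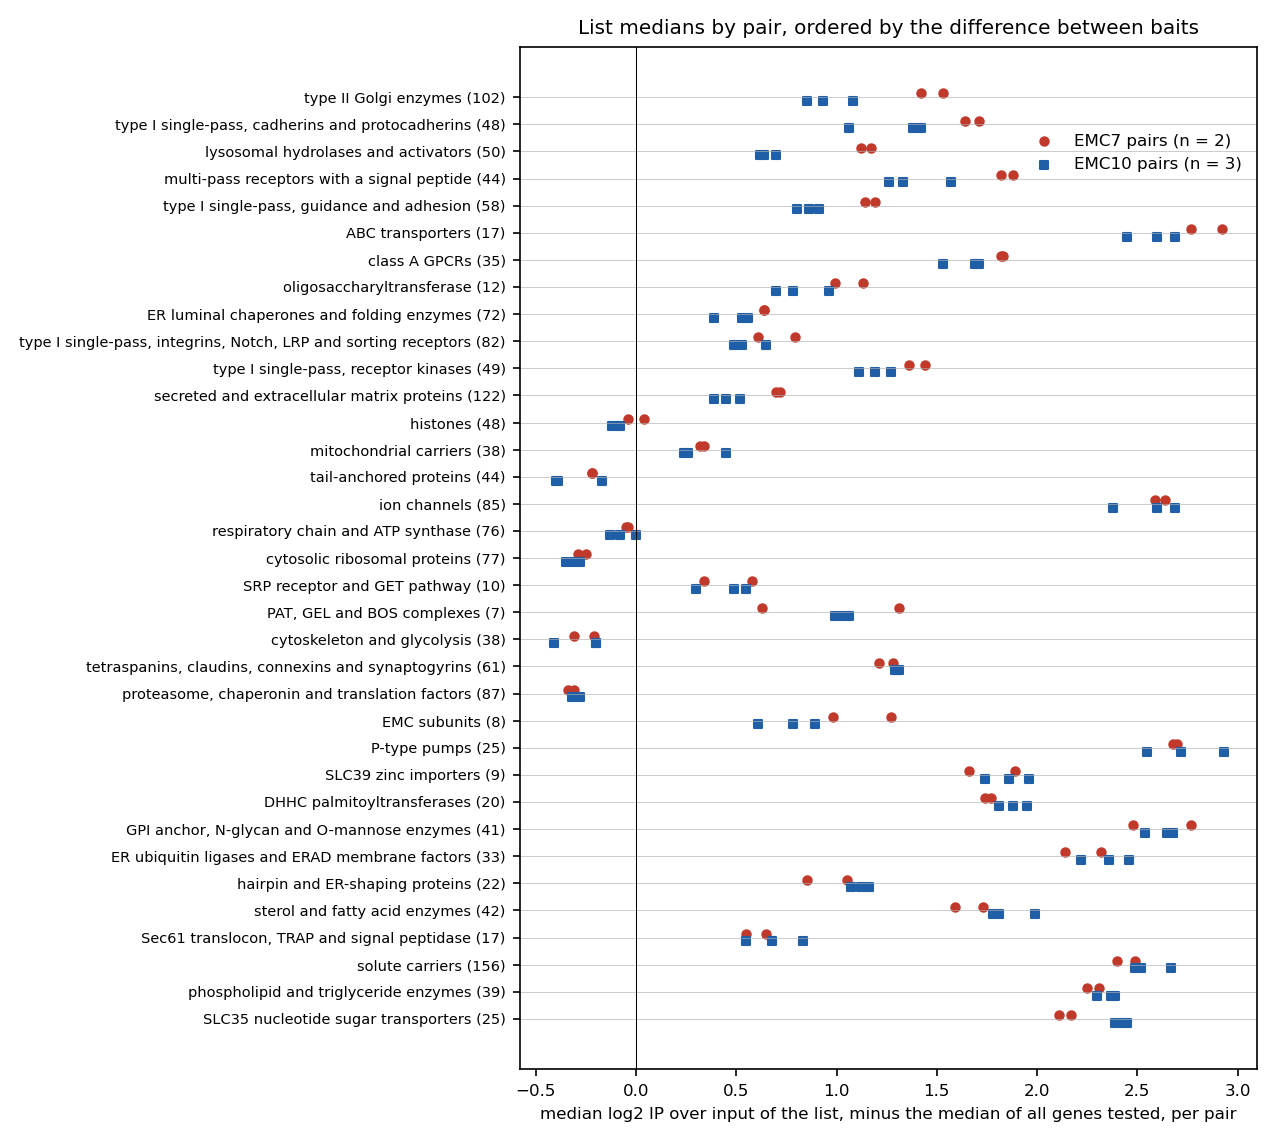
Median log2 IP/input ratio of each gene list minus that of all genes tested, in each EMC7 pair (red circles, n = 2) and EMC10 pair (blue squares, n = 3), with the number of tested genes in parentheses. Lists are ordered by their median difference, from type II Golgi enzymes (0.52) at the top to SLC35 transporters (-0.22) at the bottom.

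Soluble proteins of the secretory pathway, which have no transmembrane segment, were also on the EMC7 side. Lysosomal hydrolases and their activators had 24 of 50 members higher (48%) and 0 lower, with a median difference of 0.45. Under the scaling on secreted and luminal genes, 9 of them were higher and 1 was lower, and the median stayed above 0 at 0.21. At an unadjusted p under 0.05, 33 were higher and 0 lower. FUCA1, the lysosomal fucosidase, had paired log2 ratios of 1.88 and 2.20 with EMC7 and of 1.45, 0.95 and 1.19 with EMC10 (difference 0.84 ± 0.14, edgeR adjusted p = 1.05e-06). GAA, the acid glucosidase deficient in Pompe disease, differed by 0.81, the beta-galactosidase GLB1 by 0.81, the Tay-Sachs enzyme subunit HEXA by 0.70 and the protease cathepsin D (CTSD) by 0.47. GALC, the enzyme lost in Krabbe disease, differed by 1.12 ± 0.25, and by 0.66 (adjusted p = 0.433) without EMC7 replicate 2.

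Chaperones and folding enzymes of the ER lumen had 21 of 72 members higher and 1 lower, the calcium-binding protein NUCB2 (-0.37). Their median difference was 0.16 and turned to -0.09 under the scaling on secreted and luminal genes, with 12 higher and 11 lower. Called members, picked here after their values were seen and not as a set tested for a shared role, included the prolyl 4-hydroxylase subunits P4HA2 (1.11) and P4HA1 (0.71), the members of the prolyl 3-hydroxylase complex CRTAP (0.79), P3H1 (0.70) and P3H4 (0.79), the lysyl hydroxylases PLOD1 (0.57) and PLOD3 (0.58), the galactosyltransferase COLGALT1 (0.52) and the collagen chaperone SERPINH1 (0.57). P4HA2 had 230 and 186 CPM in the EMC7 inputs and 623 and 589 in the EMC7 IPs. P4HA2 had 178, 202 and 203 CPM in the EMC10 inputs and 246, 263 and 279 in the EMC10 IPs. The EMC7 IPs lay far above the EMC10 IPs (difference 1.11 ± 0.12, edgeR adjusted p = 8.97e-15), and the call held in every alternative. Also called were the glucosyltransferases UGGT1 (0.72) and UGGT2 (0.66), the glucosidase II subunit GANAB (0.73), calreticulin (CALR, 0.43) and BiP (HSPA5, 0.52), the main ER Hsp70.

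Secreted and extracellular matrix proteins had 12 of 122 members higher (9.84%) and 0 lower, with a median of 0.13 that turned to -0.11 (4 higher, 9 lower) under the scaling on secreted and luminal genes. BMP7, a growth factor of the TGF-beta family, differed by 0.77 ± 0.15, with 108 and 97 CPM in the EMC7 inputs, 257 and 246 in the EMC7 IPs, 103, 99.8 and 104 in the EMC10 inputs and 165, 130 and 149 in the EMC10 IPs. The inputs lay close together and the IPs did not overlap. CLU, the secreted chaperone clusterin, differed by 0.66, and the basement membrane proteins NID1 and LAMA5 by 0.55 and 0.31. At an unadjusted p under 0.05, 23 members were higher and 5 lower.

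Among type I single-pass proteins, integrins, Notch and LRP family receptors and sorting receptors had 17 of 82 members higher and 0 lower, with a median of 0.15 that turned to -0.10 (5 higher, 9 lower) under the scaling on secreted and luminal genes. LRP6, the Wnt co-receptor, had paired log2 ratios of 2.07 and 2.16 with EMC7 against 1.41, 1.25 and 1.35 with EMC10 (difference 0.78 ± 0.11, edgeR adjusted p = 6.69e-09). The related LRP5 differed by 0.57, the laminin-binding integrin ITGA6 by 0.69, the integrin ITGA3 by 0.67 and the mannose 6-phosphate receptor M6PR by 0.64. KIAA1549 had the largest called difference of this list at 0.97 ± 0.15. Guidance and adhesion proteins had 6 of 58 higher and 0 lower (median 0.23, or -0.01 with 1 higher and 2 lower under that scaling), among them the semaphorin SEMA4C (0.73) and LRIG2 (0.71). Receptor kinases had a median of 0.14 (-0.10 with 0 higher and 1 lower under that scaling). Of 49 tested, 2 were higher (4.08%, near the 3.33% of all genes tested), EGFR (0.42) and EPHA2 (0.39). Neither held without EMC10 replicate 2, where EGFR differed by 0.37 (adjusted p = 0.266) and EPHA2 by 0.31 (adjusted p = 0.29), or without EMC7 replicate 2 (0.29 with 0.519 and 0.36 with 0.184). EGFR also lost its call without EMC10 replicate 3 (0.40, adjusted p = 0.183) and EPHA2 without EMC7 replicate 1 (0.43, adjusted p = 0.0579).

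Cadherins and protocadherins had 26 of 48 members higher and 0 lower with a median of 0.52, but 22 of the 26 were gamma protocadherins. These share their last exons, so a footprint there can count for each of them, and their differences ran only from 0.56 to 0.69. Under the scaling on secreted and luminal genes the whole list had 1 higher and 2 lower, with a median of 0.27. The other 26 members had 4 higher and 0 lower and a median of 0.06. The 4 were the delta protocadherin PCDH19 (0.85 ± 0.15, adjusted p = 2.67e-06), the giant cadherins FAT1 (0.43) and FAT3 (0.44), and the desmosomal cadherin DSC3 (0.42). Counted without the gamma cluster, 285 of 9208 genes were higher (3.10%). The single-pass lists together, Golgi enzymes included, then had 66 of 317 higher.

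The counts of these luminal and single-pass lists rested in part on single pairs. Without EMC10 replicate 2, 24 Golgi enzymes, 14 lysosomal proteins, 15 ER luminal proteins, 4 secreted proteins, 5 of the integrin and LRP list, 2 guidance proteins and 4 cadherins were higher, and 1 ER luminal protein and 2 of the integrin and LRP list were lower. Without EMC7 replicate 2 the counts were 27, 17, 15, 4, 8, 3 and 4 in the same order, and 3 secreted proteins and 1 of the integrin and LRP list were lower. In the fit without pair blocks 12 lysosomal, 13 ER luminal and 4 secreted proteins, 5 of the integrin and LRP list, 2 guidance proteins and 2 cadherins were higher. Without EMC10 replicate 3, 2 guidance proteins were higher. The lists' medians stayed above 0 in each of these fits.

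**Figure D4:**
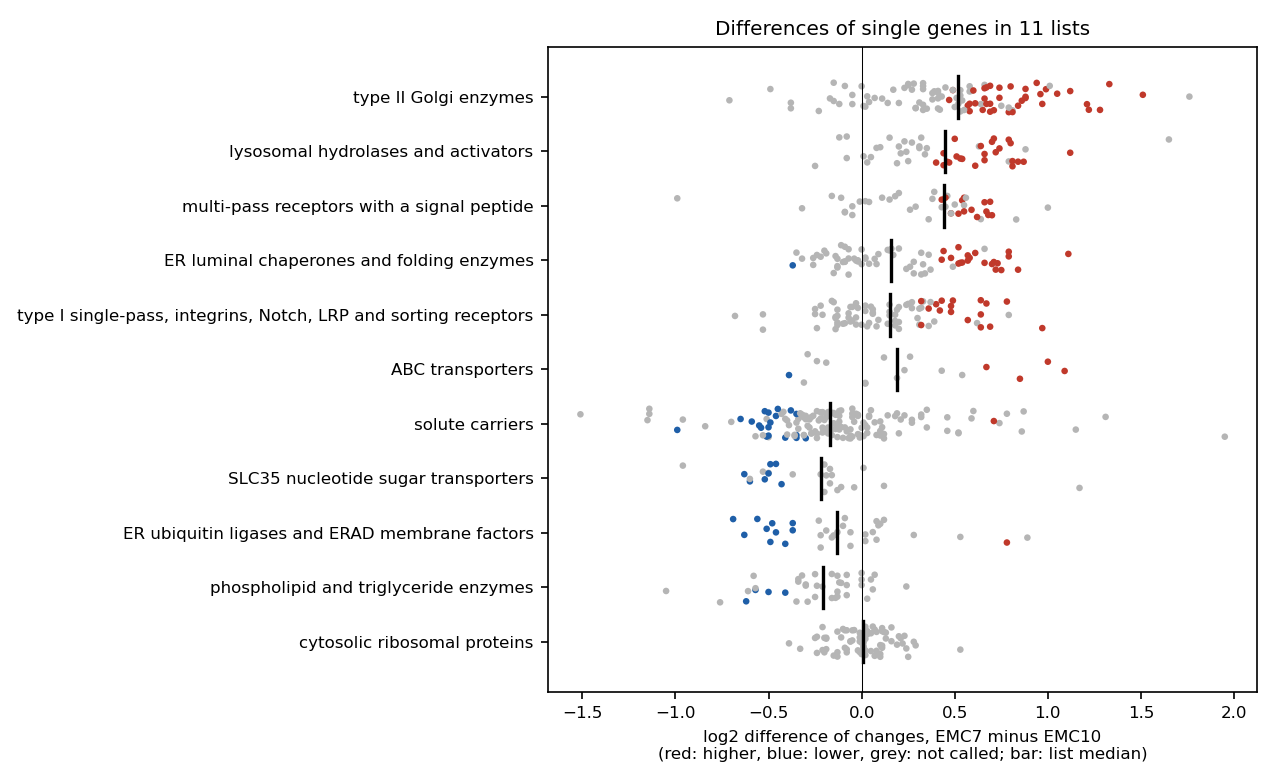
Log2 difference of changes, EMC7 minus EMC10, for each tested gene (point) of 11 lists; red marks genes called higher, blue lower and grey not called, and the bar is the list median. Golgi enzymes (37 of 102 higher) and lysosomal hydrolases (24 of 50) spread to the right, and solute carriers (19 of 156 lower) to the left.

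Among multi-pass proteins the direction differed between families. Over all multi-pass lists 35 of 632 genes were higher and 60 were lower, with a median difference of -0.09. Receptors with a signal peptide and many segments, such as Frizzled and adhesion receptors, had 14 of 44 higher and 0 lower and a median of 0.44 (4 higher and 3 lower, median 0.20, under the scaling on secreted and luminal genes, 6 higher without EMC10 replicate 2 and 7 without pair blocks). FZD6, a Wnt receptor, had 99.9 and 101 CPM in the EMC7 inputs and 464 and 414 in the IPs, against 87.4, 83.0 and 90.8 and 253, 211 and 251 in the EMC10 line, a difference of 0.69 ± 0.14 (edgeR adjusted p = 5.79e-05). The Wnt receptors FZD2 (0.54), FZD3 (0.52) and FZD7 (0.48), the latrophilins ADGRL1 (0.67) and ADGRL2 (0.43), the Golgi protein GPR107 (0.68) and the lysosomal cholesterol transporter NPC1 (0.45) were also called. SMO, the Hedgehog signal transducer, differed by 0.70 ± 0.17 but lost the call without EMC7 replicate 1 (0.62, adjusted p = 0.0937) and without EMC10 replicate 2 (0.52, adjusted p = 0.175).

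Of 35 class A G protein-coupled receptors, 3 were higher and 0 lower, with a median of 0.19 (-0.08 under that scaling, with 1 higher). The 3 were LGR4 (0.99 ± 0.16) and LGR5 (0.54 ± 0.11), R-spondin receptors with a large luminal domain behind a signal peptide, and GPR37 (0.75 ± 0.20). LGR4 had paired log2 ratios of 1.69 and 1.68 with EMC7 and of 0.85, 0.77 and 0.49 with EMC10. GPR37 lost the call without EMC7 replicate 2 (0.59, adjusted p = 0.24) and without EMC10 replicate 2 (0.71, adjusted p = 0.0825).

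ABC transporters, ATP-driven pumps, had 4 of 17 members higher and 1 lower (2 higher without EMC7 replicate 1, where ABCA2 and ABCA7 lost their calls), with a median of 0.19 that turned to -0.06 (3 higher, 2 lower) under that scaling. All 4 higher members were of the A subfamily, lipid transporters with large luminal loops. ABCA3, the surfactant lipid transporter, had 171 and 123 CPM in the EMC7 inputs and 1760 and 1491 in the EMC7 IPs. In the EMC10 line ABCA3 had 131, 168 and 142 CPM in the inputs and 735, 821 and 731 in the IPs. The inputs overlapped and the IPs did not, and the changes were 11.1-fold with EMC7 and 5.18-fold with EMC10 (difference 1.09 ± 0.11, edgeR adjusted p = 6.45e-17), and the call held in every alternative. ABCA5 differed by 1.00 ± 0.15, ABCA7 by 0.85 ± 0.19 (0.72 with an adjusted p of 0.0948 without EMC7 replicate 1) and ABCA2 by 0.67. ABCC4, an organic anion exporter of another subfamily, was lower at -0.39.

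Solute carriers, the multi-pass transporters of nutrients and ions, had 19 of 156 members lower (12.2%) and 1 higher, with a median of -0.17. The count of lower members was 1 in the fit without pair blocks, 9 to 16 without 1 pair (12 and 9 without EMC7 replicates 1 and 2, and 10 without EMC10 replicate 1), 7 between IPs directly and 54 under the scaling on secreted and luminal genes. SLC15A4, a lysosomal histidine and peptide transporter, had 150 and 130 CPM in the EMC7 inputs and 757 and 577 in the IPs, against 97.4, 118 and 138 and 743, 956 and 927 in the EMC10 line. Its paired ratios of 2.33 and 2.15 lay below the 2.93, 3.01 and 2.74 with EMC10 (difference -0.65 ± 0.12, edgeR adjusted p = 7.44e-06). Further members called lower were the cystine exchanger SLC7A11 (-0.55), the zinc transporter SLC30A5 (-0.54), the iron transporter SLC11A2 (-0.35), the nucleoside transporter SLC29A1 (-0.30) and the glutamate transporter SLC1A3 (-0.35).

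The 1 higher solute carrier was SLC12A2, the Na-K-Cl cotransporter NKCC1. It had 792 and 764 CPM in the EMC7 inputs and 13641 and 11461 in the EMC7 IPs. SLC12A2 had 615, 677 and 716 CPM in the EMC10 inputs and 6393, 6351 and 6992 in the EMC10 IPs. Both IP groups stood far above their inputs, and the EMC7 IPs above the EMC10 IPs, with changes of 16.1-fold and 9.84-fold (difference 0.71 ± 0.09, edgeR adjusted p = 3.05e-10). With 1 pair left out the difference stayed between 0.61 and 0.80.

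SLC35 nucleotide sugar transporters and relatives, which feed the Golgi with sugar donors, had 7 of 25 members lower (28%) and 0 higher, with a median of -0.22. Their list medians over all genes were 2.17 and 2.11 in the EMC7 pairs and 2.45, 2.43 and 2.39 in the EMC10 pairs, without overlap. SLC35B4 differed by -0.60 ± 0.13 (edgeR adjusted p = 0.00024), with paired ratios of 2.92 and 2.83 against 3.45, 3.33 and 3.64. Without EMC7 replicate 2, and likewise in the fit without pair blocks, 1 of the 7 was called. The zinc importers of the SLC39 family had 0 of 9 called by edgeR or DESeq2, and 0 at an unadjusted p under 0.05 (median -0.11). DESeq2 gave no adjusted p for 6621 of the 9230 genes, so its 0 calls in this and later lists may cover only part of the members.

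Ion channels split, with 6 of 85 higher and 3 lower and a median of 0.03 (3 higher without EMC7 replicate 2 or EMC10 replicate 2, and 1 lower without EMC10 replicate 1). Under the scaling on secreted and luminal genes 3 channels were higher and 9 lower, with a median of -0.21. MCOLN2, a lysosomal cation channel, was higher by 1.12 ± 0.16 (edgeR adjusted p = 9.67e-09) and the volume-regulated anion channel subunit LRRC8B by 0.98 ± 0.21. CACNA1C, the pore of the L-type calcium channel Cav1.2, had the largest change with EMC10 of the called genes, 33.8-fold. It had 12.9 and 11.9 CPM in the EMC7 inputs and 216 and 168 in the EMC7 IPs, against 7.40, 10.1 and 11.7 in the EMC10 inputs and 315, 410 and 256 in the EMC10 IPs. The ratios of 4.03 and 3.77 lay below the 5.34, 5.29 and 4.41 with EMC10, and the difference was -1.12 ± 0.24 (edgeR adjusted p = 0.000345). PIEZO1, a mechanosensitive channel with very many segments, was also lower (-0.37).

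ER ubiquitin ligases and membrane factors of ER-associated degradation had 10 of 33 members lower (30.3%) and 1 higher, with a median of -0.13 (2 lower and 0 higher in edgeR's fit without pair blocks). WFS1, the ER protein mutated in Wolfram syndrome, had 66.3 and 63.5 CPM in the EMC7 inputs and 832 and 830 in the EMC7 IPs. In the EMC10 line WFS1 had 61.8, 55.2 and 60.3 CPM in the inputs and 1275, 1115 and 1121 in the IPs. The changes of 12.8-fold and 19.8-fold differed by -0.63 ± 0.13 (edgeR adjusted p = 8.86e-05). The ligases RNF139 (-0.69 ± 0.13), RNF26 (-0.56) and MARCHF6 (-0.51), the retrotranslocation factor DERL1 (-0.41) and the intramembrane proteases PSEN2 (-0.46) and HM13 (-0.37) were lower too. RHBDF2, an inactive rhomboid that carries a long N-terminal domain, was higher by 0.78 ± 0.21, a call lost without EMC7 replicate 1 (0.83, adjusted p = 0.0562), EMC7 replicate 2 (0.73, 0.0896) or EMC10 replicate 2 (0.71, 0.0851).

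Of the lipid enzymes of the ER membrane, phospholipid and triglyceride enzymes had 4 of 39 lower and 0 higher (median -0.21, with 1 lower in the fit without pair blocks): the serine phospholipid synthase PTDSS1 (-0.50 ± 0.10), the acyltransferases GPAT3 (-0.57 ± 0.12) and LPCAT3 (-0.41), and the Hedgehog palmitoyltransferase HHAT (-0.62 ± 0.16, or -0.55 with an adjusted p of 0.197 without EMC7 replicate 1). Sterol and fatty acid enzymes had 3 of 42 lower, among them ELOVL5 (-0.45 ± 0.09) and SQLE (-0.31), and 1 higher, the sterol sensor SCAP (0.38 ± 0.12). Without EMC7 replicate 1 the list had 6 lower, without EMC7 replicate 2, EMC10 replicate 2 or EMC10 replicate 3 it had 2, and without pair blocks edgeR called 0. SCAP lost its call without EMC7 replicate 1 (0.45, adjusted p = 0.0943), EMC7 replicate 2 (0.32, 0.394), EMC10 replicate 2 (0.30, 0.383) or EMC10 replicate 3 (0.34, 0.258).

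The enzymes that build GPI anchors, N-glycan precursors and O-mannose divided within the list, with 5 of 41 higher, 7 lower and a median of -0.12 (4 higher and 2 lower without EMC7 replicate 2, 4 lower without any 1 of the EMC10 replicates, and 4 higher and 1 lower without pair blocks). The higher ones were PIGS (0.79 ± 0.11), PIGT (0.71 ± 0.12) and GPAA1 (0.44) of the GPI transamidase, which attaches the finished anchor in the lumen, with PIGO (0.69 ± 0.10) and PGAP1 (0.68). PIGK, the catalytic subunit of the transamidase and not on the list, was at 0.55 ± 0.11 (edgeR adjusted p = 3.20e-05), and PIGU, its most hydrophobic subunit, at -0.07 ± 0.13 (adjusted p = 0.929). PIGU had paired ratios of 2.82 and 2.23 with EMC7 and 2.64, 2.74 and 2.48 with EMC10, which overlap; PIGK and PIGU were looked up after the other subunits' values were seen. Among the lower ones were the multi-pass glycosyltransferases ALG10B (-0.65), ALG8 (-0.50) and DPY19L1 (-0.36), the O-mannosyltransferase TMTC3 (-0.57), SRD5A3 (-0.53) and DPAGT1 (-0.33), the enzyme of the first step of N-glycan precursor synthesis.

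The oligosaccharyltransferase list, for the complex that transfers N-glycans to nascent chains, had 2 of 12 members higher and 1 lower with a median of 0.17, or 1 higher and 3 lower with a median of -0.07 under the scaling on secreted and luminal genes. RPN1, a type I subunit with a large luminal domain, had 1364 and 1420 CPM in the EMC7 inputs and 4549 and 4780 in the EMC7 IPs. In the EMC10 line RPN1 had 1240, 1213 and 1402 CPM in the inputs and 2071, 1719 and 2171 in the IPs. The EMC7 IPs exceeded every EMC10 IP, and the difference was 1.12 ± 0.10 (edgeR adjusted p = 7.01e-23), a call that held in every alternative. The multi-pass catalytic subunits did not share it: STT3A was at -0.35 ± 0.09 (adjusted p = 0.00531; -0.29 with 0.121 without EMC7 replicate 2) and STT3B at -0.19 ± 0.09 (adjusted p = 0.395). RPN2 was at 0.31 ± 0.09 (adjusted p = 0.029) and lost its call without EMC7 replicate 1 (0.24, 0.188), EMC10 replicate 2 (0.27, 0.322) or EMC10 replicate 3 (0.31, 0.167), and DDOST was at 0.19 ± 0.10 (adjusted p = 0.395). STT3B and DDOST were looked up after the values of RPN1 were seen.

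Other complexes that handle nascent chains had short lists, so single calls weigh heavily in their shares. Of the PAT, GEL and BOS complexes, which assist multi-pass insertion, 7 genes were tested, with 1 higher and 1 lower. These are 14.3% each, against 3.33% higher and 1.05% lower over all genes tested. The BOS subunit nicalin (NCLN), whose bulk is luminal, was higher by 0.50 ± 0.10. The PAT subunit CCDC47 was lower at -0.52 ± 0.09. CCDC47 had paired log2 ratios of 1.87 and 1.96 with EMC7 and of 2.52, 2.37 and 2.43 with EMC10. Of 17 genes of the Sec61 translocon, TRAP and signal peptidase TRAM1 was lower (-0.35 ± 0.10), a call lost in each fit without EMC7 replicate 2, EMC10 replicate 1, EMC10 replicate 2 or EMC10 replicate 3 (-0.24 to -0.37, adjusted p = 0.0525 to 0.357). That call made 5.88% of the 17 genes lower, and 0 were higher. The median of these 17 genes was -0.16, close to the -0.17 of the solute carriers. At an unadjusted p under 0.05, 5 of them were lower and 0 higher. Under the scaling on secreted and luminal genes 10 were lower and 0 higher, with a median of -0.40. Of 10 genes of the SRP receptor and the GET pathway edgeR and DESeq2 each called 0, with 2 lower at an unadjusted p under 0.05.

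P-type pumps had 3 of 25 lower and 0 higher (0 lower in edgeR's fit without pair blocks, and 1 without EMC7 replicate 2 or EMC10 replicate 3): the Golgi calcium pump ATP2C1 (-0.54 ± 0.10, edgeR adjusted p = 3.05e-05), the ER calcium pump ATP2A2 (-0.35 ± 0.09) and the plasma membrane pump ATP2B1 (-0.30 ± 0.10). ATP2A2 lost its call without EMC7 replicate 2 (-0.27, adjusted p = 0.145) or EMC10 replicate 3 (-0.34, 0.0849), and ATP2B1 without either EMC7 replicate or without EMC10 replicate 3 (-0.27 to -0.30). Tetraspanins, claudins, connexins and synaptogyrins had 2 of 61 lower, GPM6A (-0.63 ± 0.15) and TSPAN13 (-0.55 ± 0.12), and DHHC palmitoyltransferases 1 of 20, ZDHHC17 (-0.61 ± 0.16). TSPAN13 lost its call without EMC7 replicate 1 (-0.42, adjusted p = 0.112) and ZDHHC17 without EMC7 replicate 2 (-0.51, adjusted p = 0.162). Of 22 hairpin and ER-shaping proteins, and of 44 tail-anchored proteins, which enter the membrane after translation, edgeR and DESeq2 each called 0. At an unadjusted p under 0.05, 2 of the former were lower and 0 of the latter were called, and 2 hairpin proteins were lower without EMC7 replicate 1.

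Genes of the cytosol were described in the same way as the other lists. TMM draws the bulk of genes towards a difference of 0, so a median near 0 here is no separate control. Of 250 tested genes for ribosomal proteins, proteasome, chaperonin and translation factors, histones, cytoskeleton and glycolysis, edgeR and DESeq2 each called 0, 7 were higher and 7 lower at an unadjusted p under 0.05, and the median difference was -0.01. How many of these 250 genes had an adjusted p from DESeq2 was not counted. The scaling on secreted and luminal genes called members of these lists lower, for instance 10 of 77 ribosomal protein genes. Of 38 mitochondrial carriers edgeR and DESeq2 each called 0 (3 higher and 1 lower at an unadjusted p under 0.05), and of 76 genes of the respiratory chain NDUFA10 was lower. Of the 307 higher genes 184 stood on a list, and of the 97 lower genes 65 did, against 1699 of the 9230 tested.

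Several of the largest differences lay outside the lists. ERMP1, a multi-pass metallopeptidase of the ER, had 258 and 246 CPM in the EMC7 inputs and 1744 and 1854 in the IPs, against 207, 251 and 248 and 657, 678 and 775 in the EMC10 line. The difference was 1.25 ± 0.11 (edgeR adjusted p = 3.61e-23). DISP1, the multi-pass protein that releases Hedgehog from the membrane, differed by 1.38 ± 0.20 with paired ratios of 2.51 and 2.82 against 1.00, 1.61 and 1.14. BSCL2 (seipin), which shapes lipid droplets, differed by 1.27 ± 0.20, with ratios of 2.74 and 2.98 against 1.87, 1.55 and 1.35. Each of these 3 calls held without any 1 pair. Chosen after their values were seen, TMEM43 (1.05 ± 0.11), the ER selenoprotein SELENON (1.15 ± 0.12) and the galactosidase-like GLB1L (1.12 ± 0.25) were also higher.

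On the lower side TMEM245, a multi-pass protein of little-known function, had 161 and 136 CPM in the EMC7 inputs and 1183 and 1085 in the EMC7 IPs. TMEM245 had 105, 126 and 125 CPM in the EMC10 inputs and 1576, 1711 and 1668 in the EMC10 IPs. The IPs did not overlap, and the difference was -0.87 ± 0.11 (edgeR adjusted p = 5.21e-11). CCPG1, a receptor for autophagy of the ER with a single segment in the type II orientation, had ratios of 0.23 and 0.15 with EMC7, close to no enrichment, and of 0.98, 0.94 and 1.02 with EMC10 (difference -0.79 ± 0.12, adjusted p = 1.46e-07). Its gene overlaps PIGB, and reads of overlapping genes cannot be told apart without strand. That limit covers others of the largest differences: BMP8B overlaps PPIE and OXCT2, SCYL2 overlaps DEPDC4 and CACNA1C overlaps DCP1B. BSCL2 overlaps GNG3, TIMMDC1 overlaps CD80, TMEM199 overlaps SEBOX, and the carboxypeptidase M gene overlaps MDM2.

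**Figure D5:**
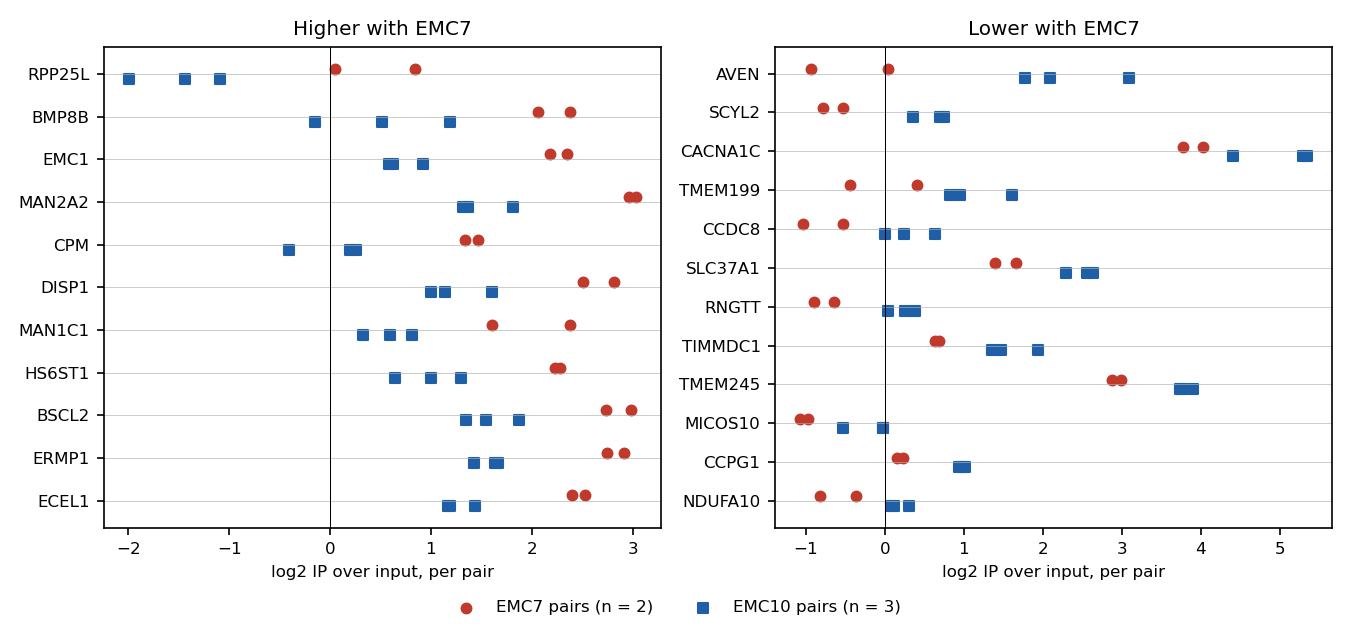
Log2 IP/input ratio in each EMC7 pair (red circles, n = 2) and EMC10 pair (blue squares, n = 3) for the 11 named genes with the largest positive (left) and the 12 with the largest negative differences (right). No EMC7 pair crosses an EMC10 pair in any of the 23, which the naming rule required. The gap is wide against the spread for EMC1, MAN2A2, ERMP1 and TMEM245.

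Many of the other large differences lost their call when 1 pair was left out. Of the 11 named genes with the largest positive differences 6 kept their call in each fit without 1 pair, and of the 12 with the largest negative differences 3 did (CACNA1C, TMEM245 and CCPG1). RPP25L, a relative of a ribonuclease P subunit and no membrane protein, had 14 and 13 counts in the EMC7 IPs and 2, 6 and 2 in the EMC10 IPs. Its difference of 1.90 ± 0.61 lost the call without any 1 of the 5 pairs (1.54 to 2.37, edgeR adjusted p = 0.0601 to 0.418). BMP8B, a secreted growth factor, had 30 and 20 counts in the EMC7 IPs and 5, 9 and 14 in the EMC10 IPs, and its difference of 1.65 ± 0.52 kept the call only without EMC10 replicate 3 (1.37 to 2.04 over the 5 fits). The GPI-anchored carboxypeptidase M (gene CPM, 1.43 ± 0.35) lost the call without EMC7 replicate 1 (1.35, adjusted p = 0.115) or EMC10 replicate 3 (1.22, 0.0503), and the type II peptidase ECEL1 (1.23 ± 0.28) without EMC7 replicate 1 (1.15, 0.054).

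AVEN, a cell death inhibitor, had the largest negative difference of the named genes (-2.80 ± 0.76), with 2.91 and 2.18 CPM in the EMC7 IPs against 16.7, 15.3 and 18.8 in the EMC10 IPs. Its gene overlaps RYR3 and CHRM5, a channel and a receptor with many segments, so the source of these footprints cannot be told apart here. The call was lost without EMC7 replicate 2 (-2.34, edgeR adjusted p = 0.279) or EMC10 replicate 3 (-2.44, 0.0836). SCYL2 (-1.31 ± 0.37), TMEM199 (-1.11 ± 0.30), CCDC8 (-1.06 ± 0.33), SLC37A1 (-0.99 ± 0.29), RNGTT (-0.98 ± 0.30), TIMMDC1 (-0.93 ± 0.27), MICOS10 (-0.85 ± 0.26) and NDUFA10 (-0.72 ± 0.21) each lost the call in 2 to 4 of the 5 fits without 1 pair, always with EMC7 replicate 2 left out and never with a change of sign. Without that pair they stood at -1.42, -0.76, -0.88, -1.12, -0.89, -0.91, -0.83 and -0.54. Genes of low counts outside the naming rule, named after their values were seen, were ARHGEF28 (-2.38 ± 0.76), with 4 and 3 counts in the EMC7 IPs against 6, 9 and 8 in the EMC10 IPs, MAML2, with 3 and 6 counts in the EMC7 IPs against 1, 0 and 1 in the EMC10 IPs, and HABP4, with 0 and 0 counts in the EMC7 IPs against 4, 6 and 3, for which no fold is given.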

How the data were processed

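Footprints from 4 EMC7 and 6 EMC10 libraries were compared. Each value is a raw footprint count for a gene symbol, as the authors deposited it, in 1 table per sample. Per the submitters' processing notes, the tools were Cutadapt 4.1, Bowtie2 2.2.6 and TopHat2 2.1.0, with hg38. Not given in the sources used here were the annotation, strand setting and any removal of duplicates, so some counts may be copies of 1 fragment, and genes that overlap on either strand may share reads. Symbols (18968 of 19440) were matched to RefSeq on GRCh38 for positions. The 5 rows that name no gene were left out. Of all counts, those rows included, reads outside genes took 2.53% to 4.71% and ambiguous reads 0.204% to 0.458%.

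The fit (edgeR 4.0.16, limma 3.58.1, R 4.3.3) had 5 pair blocks and an IP term per line, with TMM, filterByExpr and a robust quasi-likelihood test of EMC7 minus EMC10 with Benjamini-Hochberg adjustment at 0.05. The EMC7 and EMC10 rows left before library sizes were computed. Paired log2 ratios use a prior count of 1. The steps were run on counts simulated from the fit's own design and dispersions. Such counts cannot test the pairing or whether replicates are technical. Lists were described by counts and medians, without a test of the list. The lists, the members and the rule for named genes were chosen with earlier results of these data known. The rule named the 12 largest differences a side with at least 10 CPM in a group and pairs that do not overlap, all EMC subunits, and up to 3 called members per list (88 genes named). Some genes of the rule and lists are not reported here and are included in the counts only.

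The labels give IP and input of a line the same number, and the IP was made from that input, so the numbers pair them. Deviations of same-numbered libraries from their group means correlated at 0.08 in the EMC7 line and at 0.02, 0.08 and 0.06 in the EMC10 line. Replicates correlated at r = 0.942 to 0.986 over genes, and every pair of replicates differed by more than sampling noise (chi-square over degrees of freedom 1.96 to 3.32). Alternatives were other scalings, filters and fits, DESeq2 1.42.0, and each pair left out. Protein sequences were not used here.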

Additional observations from a re-analysis of the deposited data

Results flagged for a closer look

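The interaction of bait and enrichment was tested for every gene, so each result here is a difference between the lines by that test (edgeR's quasi-likelihood test with Benjamini-Hochberg adjustment). It set apart 307 genes higher with EMC7 and 97 lower. The largest positive log2 differences that met the naming rule were RPP25L 1.90, BMP8B 1.65, EMC1 1.56, MAN2A2 1.51, the carboxypeptidase M gene 1.43, DISP1 1.38, MAN1C1 1.33, HS6ST1 1.28, BSCL2 1.27, ERMP1 1.25 and ECEL1 1.23. Grouped after their values were seen, 4 of these 11 are Golgi or type II enzymes that work in the lumen (MAN2A2, MAN1C1, HS6ST1 and ECEL1). The calls of MAN1C1 (1.02 without EMC7 replicate 2) and ECEL1 (1.15 without EMC7 replicate 1) did not hold there. EMC1 is the subunit that carries most of the complex's luminal part. Of the rest, RPP25L is no membrane protein, and DISP1 and ERMP1 are multi-pass. The grouping was not set against a share over all genes.

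The largest negative differences under the same rule were AVEN -2.80, SCYL2 -1.31, CACNA1C -1.12, TMEM199 -1.11, CCDC8 -1.06, SLC37A1 -0.99, RNGTT -0.98, TIMMDC1 -0.93, TMEM245 -0.87, MICOS10 -0.85, CCPG1 -0.79 and NDUFA10 -0.72. SCYL2, CCDC8, RNGTT and AVEN encode proteins without a transmembrane segment. CACNA1C, TMEM245 and CCPG1 kept the call whichever pair was left out.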

How the results depend on the processing

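Against 307 genes higher and 97 lower, the fit with no replicate block (pairing ignored) called 148 and 14, the test against a fold of 1.5 called 10 and 0, and scaling on secreted and luminal genes 113 and 528. Lower genes numbered 64 with all 14 libraries in the fit, 164 with the EMC10 changes stretched to the EMC7 range and 56 between IPs directly. Leaving out 1 pair gave 162 to 332 higher and 60 to 76 lower genes, with 187 and 60 without EMC7 replicate 2 and 162 higher without EMC10 replicate 2. Library size alone (268 and 138), DESeq2 size factors (321 and 91) and bait rows kept (262 and 101) stayed within 1.5 times. So did no filter (320 and 65), a stricter filter (320 and 99) and centring (319 and 88). DESeq2 did too (211 and 70, with 6621 adjusted p not given). Dropping the gamma protocadherin rows from the main result left 285 and 97. This was no new fit, so its counts were fixed by the main result, and it was chosen after seeing the data. The cause of each shift was not tested. No called gene was called in the opposite direction. Of 81 named genes with a call 43 kept it in each fit without 1 pair. A comparison by the number of predicted membrane segments, planned, was not run. Depth limits low genes: IPs held 984175 to 1924355 counts outside the bait rows.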

Other observations

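The EMC6 line, an EMC6 knockout that expresses 3Flag-EMC6 (n = 2 pairs), took no part in the comparison and gives values for the same genes. Its libraries stood apart, with reads outside genes at 9.02% to 12.1% of all counts and 515302 and 960279 counts on genes in the IPs. The part of this in the values was not tested. The 307 genes higher with EMC7 had a median log2 change of 0.84 with EMC6, beside 1.73 with EMC7 and 1.01 with EMC10. The 97 lower genes had medians of 2.74, 2.14 and 2.68 in the same order. Over all 9476 genes with a value the median with EMC6 was -0.12. The EMC6 values stood nearer to those with EMC10 in both groups, a description that was not tested.

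Single genes gave the same picture in part. EMC1 changed by 0.75 ± 0.08 with EMC6 against 2.26 with EMC7 and 0.71 with EMC10, RPN1 by 0.42 against 1.74 and 0.62, and P4HA2 by 0.44 against 1.54 and 0.43. TMEM245 changed by 4.10 ± 0.10 with EMC6 against 2.93 and 3.80, CACNA1C by 5.26 ± 0.19 against 3.96 and 5.08, and WFS1 by 4.48 against 3.67 and 4.31. SLC12A2 went another way, at 5.28 with EMC6 against 4.01 with EMC7 and 3.30 with EMC10. GPR37, an orphan receptor, at 1.87 against 1.69 and 0.94, also stood above both.

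Over the median of all genes, type II Golgi enzymes had a list median of 0.93 with EMC6, next to 1.42 and 1.53 in the EMC7 pairs and 0.85 to 1.08 in the EMC10 pairs. Lysosomal proteins had 0.61 with EMC6, next to 1.12 and 1.17 with EMC7 and 0.62 to 0.70 with EMC10. Solute carriers had 2.93, next to 2.40 and 2.49 with EMC7 and 2.49 to 2.67 with EMC10.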
